A study of Mus musculus with 217 samples.

Results

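Pla2g12a, Casp6, Mcub, Rpl34, Sgms2, Cisd2, H2afz, Lamtor3, Mttp and Tspan5 are genes of mouse chromosome 3 that lie within 10 Mb of Tet2, the gene disrupted in the knockout mice of the study. They were chosen by symbol because their counts had been seen to differ by genotype label in these same libraries. The genotype contrast therefore selected them, and their genotype values are given as a description. Counts of members past a threshold in that contrast come from a fit over all genes, and nothing is read from them. They are 10 of the 53619 genes in each table and 10 of the 133 genes in the tables that the annotation places within 10 Mb of Tet2. All 10 passed the filter on low counts among the 17558 genes tested in granulosa cells and among the 20806 genes tested in oocytes. By start position on GRCm38, Pla2g12a, Casp6, Mcub, Rpl34 and Sgms2 lie 3.67, 3.64, 3.57, 2.81 and 2.05 Mb on the centromere side of Tet2 (chr3:133463679-133545139, minus strand). Cisd2, H2afz, Lamtor3, Mttp and Tspan5 lie 1.88, 4.32, 4.37, 4.60 and 5.20 Mb on the other side, so the nearest and the farthest member are both on that side.

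RNA was measured with Smart-seq2, a method that turns the polyadenylated RNA of one or a few cells into amplified cDNA, in ovarian cells of mice labelled Tet2 knockout or wild type on a mixed C57BL6/129 background. Granulosa cells, the somatic cells that surround the oocyte, were collected as pools after gonadotropin priming. There were 3 knockout-labelled and 3 wild-type pools in each of 3 groups, namely mice of 2 months, mice of 10 months given control water and mice of 10 months given resveratrol. Single metaphase II oocytes, collected after superovulation, came from the same 3 kinds of mice and from mice of 6 months with control water or resveratrol. The knockout oocytes numbered 15 at 2 months, 20 and 20 at 6 months with control water and resveratrol, and 15 and 15 at 10 months with control water and resveratrol. The wild-type oocytes numbered 18, 20, 14, 20 and 14 in the same groups. The 18 of 2 months carry a genotype tag of knockout against their titles, and the titles were followed here. A separate table held oocytes of the C57BL6 strain, for which the labels name no Tet2 allele, with 10 from mice of 10 months given resveratrol, 6 from mice of 10 months with control water and 11 from mice of 6 months with control water. Resveratrol, a plant polyphenol, was given at 30 mg per litre of drinking water from 2 months of age, and control water held its solvent DMSO. The sources used here do not give the exon or exons deleted from Tet2, whether the deletion was in all cells, or the strain in which the gene was targeted. The labels name no animals, and the granulosa p-values therefore cover the spread between libraries alone, which may be technical. Oocytes were summed per group, and their p-values cover the departures of the 10 sums from the fitted model. The spread between single oocytes or between animals does not enter them.

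Tet2 encodes a dioxygenase that oxidises 5-methylcytosine in DNA. Where a gene is targeted in cells of one inbred strain and the mice are bred with another, the stretch of chromosome around the targeted gene tends to keep the first strain's sequence in the mutants, and genes there can differ between mutants and controls through strain sequence. The tables hold counts per gene and no alleles, so whether strain sequence differed between the genotypes around Tet2 was not tested. The members have unrelated known roles, in mitochondrial calcium uptake (Mcub), apoptosis (Casp6), lipid metabolism (Pla2g12a, Sgms2, Mttp), ribosomes (Rpl34), chromatin (H2afz), lysosomal signalling (Lamtor3), the membranes of endoplasmic reticulum and mitochondria (Cisd2) and membrane microdomains (Tspan5).

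Levels are given as CPM, the count of a gene per 1000000 counts of the library, and log2 differences are those of the edgeR model. Library totals were 470647 to 20537935 in granulosa pools, 3386039 to 8775154 in the oocytes of mixed background and 3470831 to 11358927 in C57BL6 oocytes. The 5 granulosa pools under 1000000 counts were all from mice of 2 months, and Mcub rested there on 10 to 35 counts a pool. Granulosa markers took 0.225 to 0.677% of counts in the granulosa pools and oocyte markers took 1.85 to 4.47% of counts in the oocytes, so the markers of the labelled cell type were present. In granulosa pools Tet2 was not lower under the knockout label, at 8.01, 11.6 and 16.6 CPM in young knockout-labelled pools and 4.69, 12.8 and 7.99 CPM in young wild-type pools. In the 12 old pools Tet2 ranged from 10.2 to 20.9 CPM under the knockout label and from 10.6 to 15.6 CPM in wild type, with medians of 14.4 and 13.4 CPM. The granulosa genotype is therefore called a label below. In knockout oocytes the summed counts of each group gave Tet2 1.03, 1.31, 1.08, 1.38 and 0.941 CPM, against 2.89, 3.13, 2.301, 2.53 and 3.39 CPM in wild-type oocytes (2 months, 6 months control and resveratrol, 10 months control and resveratrol). Tet2 was lower in every knockout sum than in any wild-type sum, at a log2 difference of -1.36.

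Some libraries stood apart from their group at the members. Young knockout-labelled granulosa pool 2 had Rpl34 and Mcub values on the wild-type side, and young wild-type pool 3 had its Rpl34 share, defined below, on the knockout-labelled side. Among oocytes, the column names carry a first number of unstated meaning, and oocytes of a group with the same first number are called a set (a header set in the plots). There were 26 sets, and 4 of them stood apart from their labels at Mcub, Rpl34 or Sgms2, namely young knockout set 2 (10 oocytes), young wild-type sets 3 (2 oocytes) and 4 (1 oocyte), and set 2 of wild-type mice of 6 months given resveratrol (5 oocytes). The genotype differences of Mcub, Rpl34 and Sgms2 and the ranges over single oocytes are given with and without them. They were picked on the members' own values, so values without them are a description of the remaining libraries.

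Rpl34, a protein of the large ribosomal subunit, showed the widest gap between the labels, and its reads cannot be fully told apart from those of a processed pseudogene. Rpl34-ps1, an intronless copy on another chromosome, matches the whole 354-base coding region of Rpl34 with 99.4% identity. The pair is shown because the sequences differ at only 2 bases of the coding region. Further copies, Gm10154, Gm4705, Gm10086 and Rpl34-ps2, match 354 bases of Rpl34 with 97.17 to 98.87% identity. Of these only Rpl34-ps2 has a value here, at 0.223 CPM in knockout-labelled and 0.795 CPM in wild-type granulosa pools. Below are bases 72 to 354 of the coding region in the GRCm38 reference, with the differing bases in capitals. Rpl34 lies at chr3:130726831-130730398 on the minus strand and Rpl34-ps1 at chr6:71124610-71124963 on the plus strand.
Rpl34: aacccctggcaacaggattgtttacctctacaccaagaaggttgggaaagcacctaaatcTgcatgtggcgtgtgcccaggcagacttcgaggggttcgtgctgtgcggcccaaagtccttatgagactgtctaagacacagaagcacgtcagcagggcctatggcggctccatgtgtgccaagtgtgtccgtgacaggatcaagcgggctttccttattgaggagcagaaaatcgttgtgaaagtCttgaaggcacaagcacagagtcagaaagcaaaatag
Rpl34-ps1: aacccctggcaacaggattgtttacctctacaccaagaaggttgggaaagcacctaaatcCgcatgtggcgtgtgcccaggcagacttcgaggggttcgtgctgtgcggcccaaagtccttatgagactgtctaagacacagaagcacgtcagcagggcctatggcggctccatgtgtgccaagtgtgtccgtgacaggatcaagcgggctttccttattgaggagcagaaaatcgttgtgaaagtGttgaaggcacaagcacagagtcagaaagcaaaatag
The 283 bases shown hold both of the differing bases, and the rest of the coding region is identical.

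In the old granulosa pools Rpl34 was many times higher under the knockout label, and the pseudogene moved the other way. Rpl34 had 695.5, 602 and 615 CPM in old control knockout-labelled pools and 69.7, 68.0 and 79.4 CPM in old control wild-type pools. With resveratrol it had 823, 610 and 741 CPM in knockout-labelled pools and 89.2, 91.5 and 93.3 CPM in wild-type pools. The old pools did not overlap between the labels, and the mean of 6 was 8.32-fold higher under the knockout label. Over the 3 strata of young and old pools the genotype difference of Rpl34 was 2.18 on the log2 scale, and 2.46 without the 2 young pools that stood apart. Rpl34-ps1 had 69.7 to 88.8 CPM in the 6 old knockout-labelled pools and 407 to 679 CPM in the 6 old wild-type pools, a mean 0.154-fold that of wild type. As a share of the counts of the pair, Rpl34 took 88.7 to 91.4% in the 6 old knockout-labelled pools (median 89.7%) and 11.6 to 16% in the 6 old wild-type pools (median 14.8%). The old pools thus split cleanly by label in which copy the reads were counted for.

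The young pools did not split in this way. Rpl34 had 406, 41.6 and 363 CPM in young knockout-labelled pools 1, 2 and 3 and 161, 217 and 308 CPM in young wild-type pools 1, 2 and 3. Its share of the pair was 90.7% (95% Wilson interval 87.2 to 93.4%), 15.2% (14.0 to 16.5%) and 92.3% (88.6 to 94.8%) in the knockout-labelled pools. In the wild-type pools the share was 49.8% (43.0 to 56.5%), 55.7% (48.5 to 62.7%) and 92.8% (87.8 to 95.8%). Young knockout-labelled pool 2 thus lay inside the range of the old wild-type pools, young wild-type pool 3 lay at the level of the knockout-labelled pools, and young wild-type pools 1 and 2 lay between. The intervals cover counting error only, since reads without molecular identifiers are not independent molecules.

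The summed level of the pair differed much less than either copy. Rpl34 plus Rpl34-ps1 averaged 629 ± 211 CPM under the knockout label and 500 ± 143 CPM in wild type (SD, n = 9 pools each), a ratio of 1.26. Within the strata the sum was 371 ± 88.7 and 348 ± 35.6 CPM at 2 months, 716 ± 60.2 and 498 ± 21.4 CPM at 10 months with control water, and 799 ± 111 and 654 ± 102 CPM at 10 months with resveratrol, the knockout label first in each pair (SD, n = 3). Of the strata, only old control pools did not overlap in the sum, with a ratio of 1.44. Over the 6 and 6 old pools, Rpl34 averaged 681 and 81.9 CPM and Rpl34-ps1 averaged 76.0 and 494 CPM, knockout label first, so most of the gap in Rpl34 was matched by an opposite gap in the pseudogene. How reads were divided between the copies during counting was not tested.

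**Figure D1:**
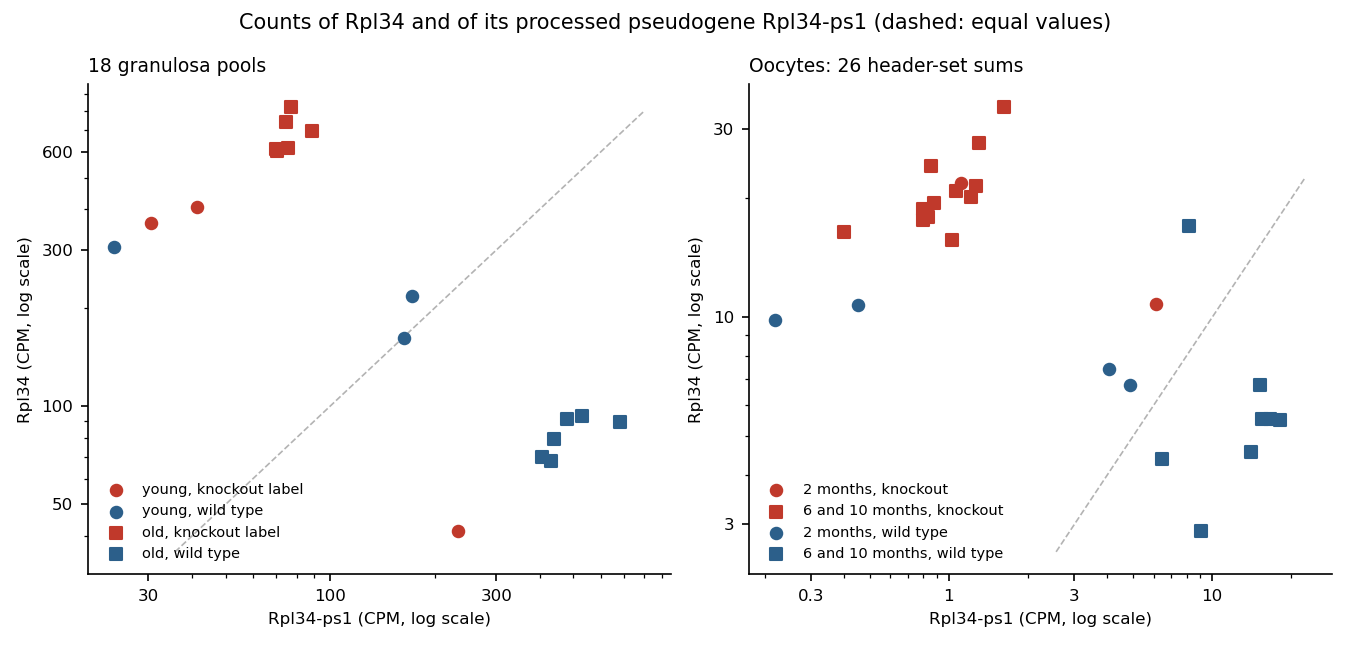
CPM of Rpl34 (vertical axis, log scale) against Rpl34-ps1 (horizontal axis, log scale), with 1 point for each of 18 granulosa pools on the left and for the summed counts of each of 26 oocyte sets on the right, knockout in red and wild type in blue. Old knockout-labelled granulosa pools sit at 69.7 to 88.8 CPM of the pseudogene and old wild-type pools at 407 to 679 CPM.

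Mcub encodes the inhibitory subunit of the mitochondrial calcium uniporter, a channel that lets calcium into mitochondria. It had 82.9, 73.9 and 48.5 CPM in old control knockout-labelled pools and 17.2, 12.02 and 14.0 CPM in old control wild-type pools. With resveratrol it had 55.5, 68.3 and 70.9 CPM in knockout-labelled pools and 12.99, 11.97 and 13.4 CPM in wild-type pools. At 2 months it had 37.4, 12.5 and 48.5 CPM in knockout-labelled pools and 17.2, 21.2 and 24.0 CPM in wild-type pools. Old pools did not overlap, with a mean 4.90-fold higher under the knockout label, and the only knockout-labelled pool in the wild-type range was young pool 2. The genotype difference of Mcub over the 3 strata was 1.74 on the log2 scale, and 1.985 without the 2 young pools that stood apart.

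Casp6 encodes an executioner caspase. It had 219, 199 and 193 CPM in old control knockout-labelled pools and 89.1, 90.1 and 94.6 CPM in old control wild-type pools, and with resveratrol 196, 228 and 259 CPM in knockout-labelled pools and 122, 115 and 103 CPM in wild-type pools. At 2 months it had 159, 110.5 and 138.5 CPM in knockout-labelled pools and 93.8, 108 and 75.9 CPM in wild-type pools. The lowest knockout-labelled value, again of young pool 2, was the only one below the highest wild-type value, and old pools were 2.11-fold higher under the knockout label. Pla2g12a, a secreted phospholipase A2, ranged from 19.8 to 41.9 CPM (median 26.8) in the 6 old knockout-labelled pools and from 6.78 to 12.5 CPM (median 9.62) in the 6 old wild-type pools, 3.03-fold higher under the knockout label. At 2 months it rested on 17, 111 and 9 counts in knockout-labelled pools and on 8, 3 and 22 counts in wild-type pools. Those young pools overlapped, at 22.7, 9.57 and 12.5 CPM under the knockout label and 12.5, 6.37 and 44.0 CPM in wild type. Pla2g12a, Casp6 and Mcub lie side by side, with starts 3.57 to 3.67 Mb from Tet2.

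Sgms2 encodes a sphingomyelin synthase of the plasma membrane. It ranged from 85.7 to 126 CPM (median 102) in the 6 old knockout-labelled pools and from 80.8 to 193 CPM (median 143) in the 6 old wild-type pools. Those ranges overlapped, and the 3 old control wild-type pools, at 193, 189 and 169 CPM, were all above the 3 old control knockout-labelled pools, at 126, 99.2 and 103 CPM. At 2 months it had 56.1, 177 and 125 CPM in knockout-labelled pools and 120, 132 and 178 CPM in wild-type pools. The genotype difference of Sgms2 over the strata was -0.29 on the log2 scale (-0.37 without the 2 young pools), the smallest of the 10 in size.

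On the other side of Tet2, H2afz, which encodes the histone variant H2A.Z, ranged from 3369 to 5530 CPM (median 4618) in the 6 old knockout-labelled pools and from 1612 to 3163 CPM (median 2538) in the 6 old wild-type pools. At 2 months it had 5126, 2596 and 1446 CPM in knockout-labelled pools and 2157, 2970 and 2277 CPM in wild-type pools. Old pools did not overlap (1.898-fold higher under the knockout label), while the lowest value of all 18 pools was in young knockout-labelled pool 3. A stretch of 682 bases of H2afz matches a part of the Tmcc1 gene on chromosome 6 with 99.85% identity, so some reads of the genes may be interchanged. Tmcc1 averaged 521 ± 84.8 CPM in the 6 old knockout-labelled pools and 280 ± 85.9 CPM in the 6 old wild-type pools (SD), so its counts and those of H2afz were both higher under the knockout label. Lamtor3, a subunit of the Ragulator complex that anchors mTORC1 signalling at the lysosome, ranged from 101 to 142.5 CPM (median 132) in the 6 old knockout-labelled pools and from 68.0 to 89.2 CPM (median 74.1) in the 6 old wild-type pools. At 2 months Lamtor3 had 92.1, 89.6 and 90.0 CPM in knockout-labelled pools and 50.0, 106 and 75.9 CPM in wild-type pools, so only 1 young wild-type pool lay above the knockout-labelled ones.

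Mttp and Tspan5 were lower under the knockout label. Mttp, the microsomal triglyceride transfer protein of lipoprotein assembly, ranged from 5.45 to 13.8 CPM (median 8.89) in the 6 old knockout-labelled pools and from 15.7 to 38.4 CPM (median 26.4) in the 6 old wild-type pools, a mean 0.334-fold that of wild type with no overlap. At 2 months Mttp had 26.7, 19.5 and 2.77 CPM in knockout-labelled pools, the last resting on 2 counts, and 17.2, 10.6 and 14.0 CPM in wild-type pools. Tspan5, a tetraspanin, had 9.91, 8.58 and 6.43 CPM in old control knockout-labelled pools and 18.4, 20.7 and 18.6 CPM in old control wild-type pools, which did not overlap. With resveratrol it had 10.5, 7.86 and 8.21 CPM in knockout-labelled pools and 11.9, 9.12 and 11.1 CPM in wild-type pools, which overlapped. Cisd2, an iron-sulfur protein of endoplasmic reticulum and mitochondrial membranes, ranged from 72.5 to 104 CPM (median 89.8) in the 6 old knockout-labelled pools and from 55.0 to 83.1 CPM (median 67.2) in the 6 old wild-type pools, and the labels overlapped.

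**Figure D2:**
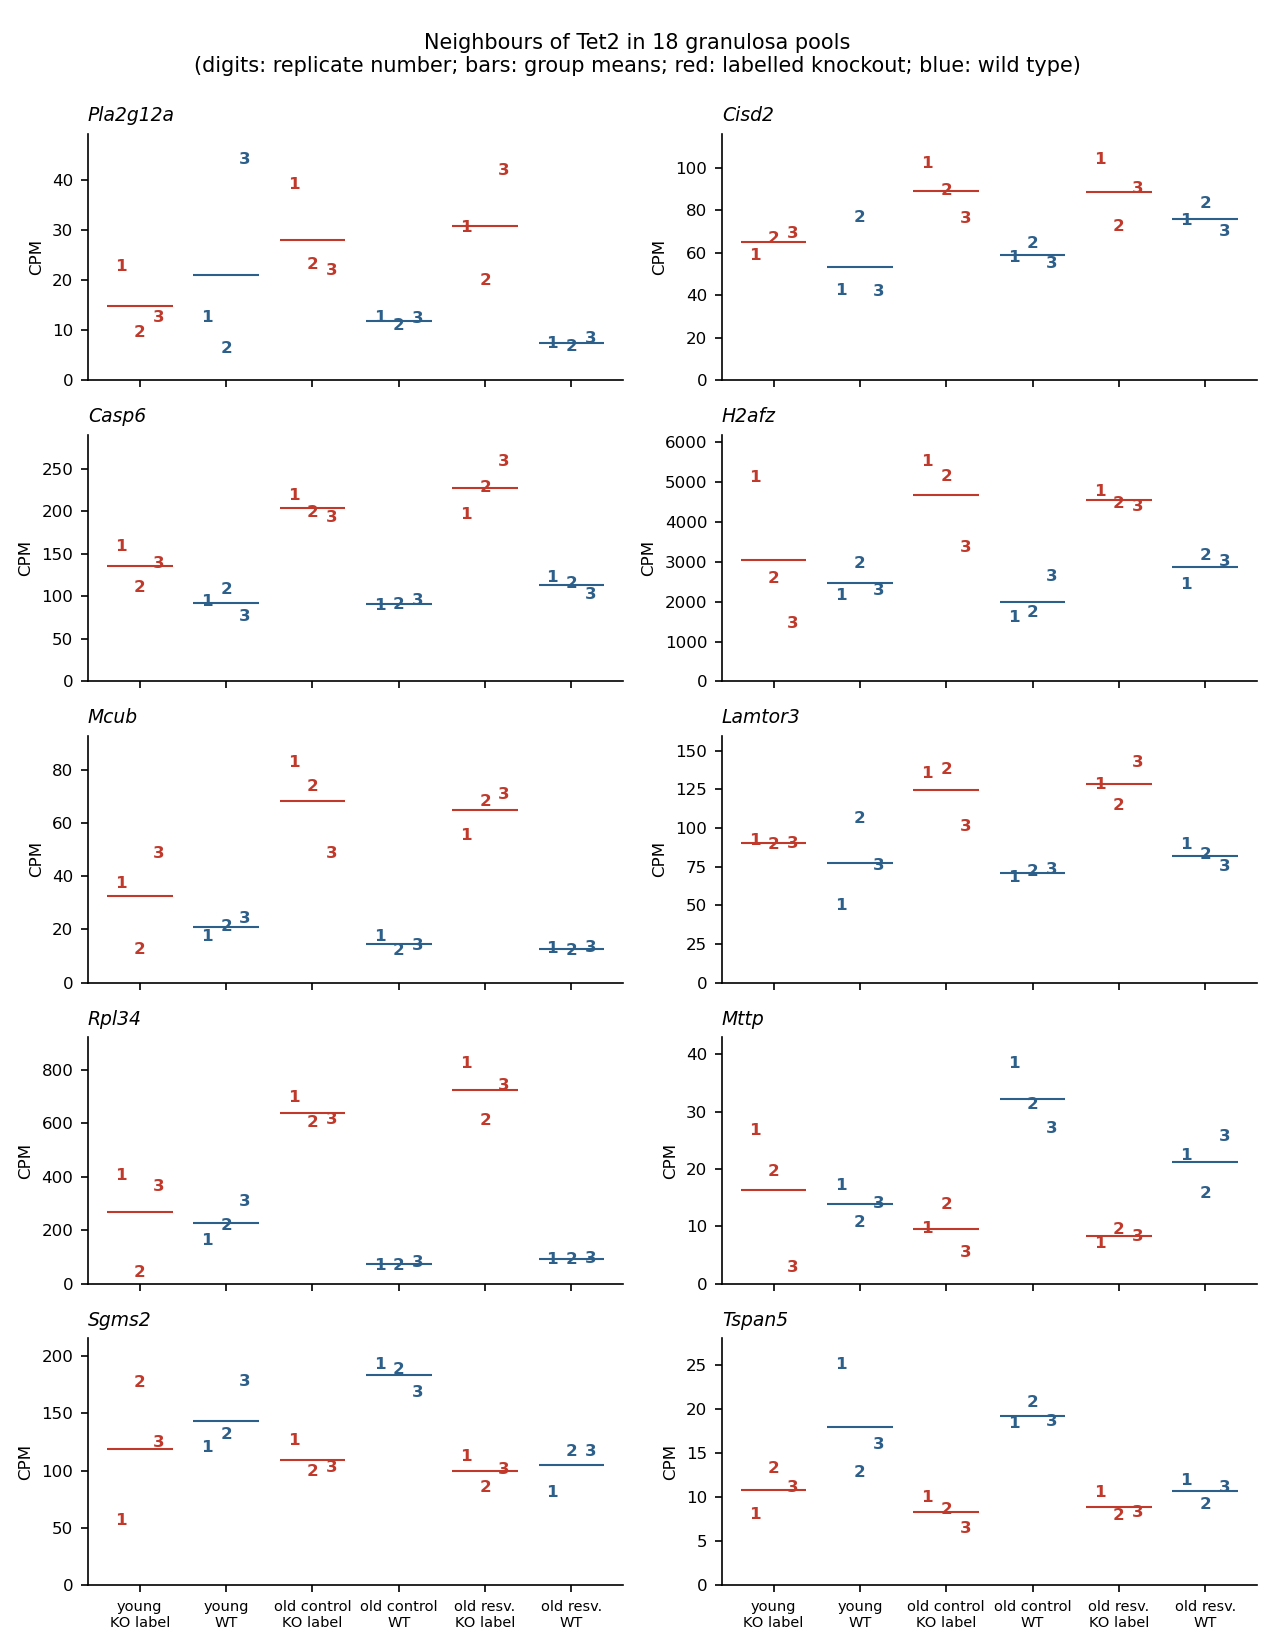
CPM of each member in the 18 granulosa pools, with knockout-labelled pools (red) left of wild-type pools (blue) at 2 months (young), at 10 months with control water (old control) and at 10 months with resveratrol (old resv.). Digits stand for pools by replicate number and bars for the means of 3 pools. Rpl34, Mcub, Casp6, Pla2g12a, H2afz and Lamtor3 have every old knockout-labelled pool above every old wild-type pool, and Mttp has the reverse. In young pools the labels overlap except at Casp6, with 110.5 CPM or more under the knockout label and 108 CPM or less in wild type.

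Counted over the members, 7 of 10 did not overlap between the labels in the 12 old pools, among 2.78% of all genes tested that did not overlap there. Over all 9 knockout-labelled and 9 wild-type pools none of the 10 was free of overlap, among 0.0171% of all genes. In the mean genotype contrast over the strata, 8 of 10 members passed an adjusted p of 0.05 in edgeR's quasi-likelihood test, 6 higher and 2 lower under the knockout label, where 4.5% of all genes tested passed (3.14% higher and 1.36% lower). Their median log2 difference was 0.71, beside 0.09 over all genes. Split by stratum, 0 members passed at 2 months (0.114% of all genes), 9 in old control pools (3.86%) and 4 in old resveratrol pools (1.07%). At 2 months 1 member had an unadjusted p under 0.05 and DESeq2 called 0. Since the members were picked on this contrast, nothing is read from these counts. The passing members with the smallest log2 differences were Tspan5 (-0.67) and Lamtor3 (0.62), and the members that did not pass were Cisd2 (0.43) and Sgms2 (-0.29).

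Other RNA moved with the label in the granulosa pools. Of 12 listed leukocyte markers, such as Ptprc and Tyrobp, 10 passed as higher under the knockout label, with a median log2 difference of 3.91 over the list, and none was at 0 in all pools. Their summed share of counts was 0.00111 to 0.0835% in young knockout-labelled pools and 0.00109 to 0.00300% in young wild-type pools. It was 0.122 to 0.159% in old control knockout-labelled pools and 0.00778 to 0.0126% in old control wild-type pools, and with resveratrol 0.0319 to 0.0753% in knockout-labelled pools and 0.0155 to 0.0314% in wild-type pools. The part of these cells in the members' values was not tested, and in pools fewer cells of a type and less RNA per cell cannot be told apart. The share was lower in each old knockout-labelled pool with resveratrol than in any with control water. There Rpl34 averaged 725 ± 107 CPM with resveratrol and 637 ± 50.7 CPM with control water (SD, n = 3 pools each). Mcub averaged 64.9 ± 8.24 and 68.4 ± 17.9 CPM in the same order, and 0 members had an unadjusted p under 0.05 in edgeR. In old wild-type pools the share was higher in each pool with resveratrol than in any with control water. In edgeR 6 of 10 members had an unadjusted p under 0.05 there, each in the direction of its genotype difference. Pla2g12a alone went against that direction (log2 difference -0.43). Both contrasts subtract the same old control wild-type pools, and the members were chosen on genotype. The shared direction is therefore not independent of that choice, and nothing is read from it. Whether the members follow the share was not tested.

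Within 10 Mb of Tet2, 70 genes were tested in granulosa cells and 10 passed in the genotype contrast, 8 of them members. The other 2 were Cenpe, a kinesin of the mitotic spindle 1.67 Mb from Tet2, and Adh5, an alcohol dehydrogenase that acts on formaldehyde adducts, 4.90 Mb from Tet2. Cenpe averaged 27.6 ± 8.19 CPM under the knockout label and 16.8 ± 3.701 CPM in wild type, and Adh5 averaged 322 ± 68.9 and 186 ± 13.2 CPM in the same order (SD, n = 9 pools each). Adh5 did not overlap between the labels in the 12 old pools, at 328 to 394 CPM under the knockout label and 172.5 to 211 CPM in wild type. Of the 60 genes of the window that are no members 3.33% passed, beside 6.84% of 570 genes on the rest of chromosome 3 and 4.90% of 12907 genes on other chromosomes. Since the members were picked among genes of the window that differed, the low share of the other genes there is set by that choice. In oocytes, 73 genes of the window were tested and 4 passed, namely the members Mcub, Rpl34 and Sgms2, which were chosen on genotype, and Tet2 itself, beside 1 of 623 genes (0.161%) on the rest of chromosome 3 and 13 of 14067 (0.0924%) on other chromosomes. Genes of the window with wider differences than the members are in the plot of the window too and did not pass.

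**Figure D3:**
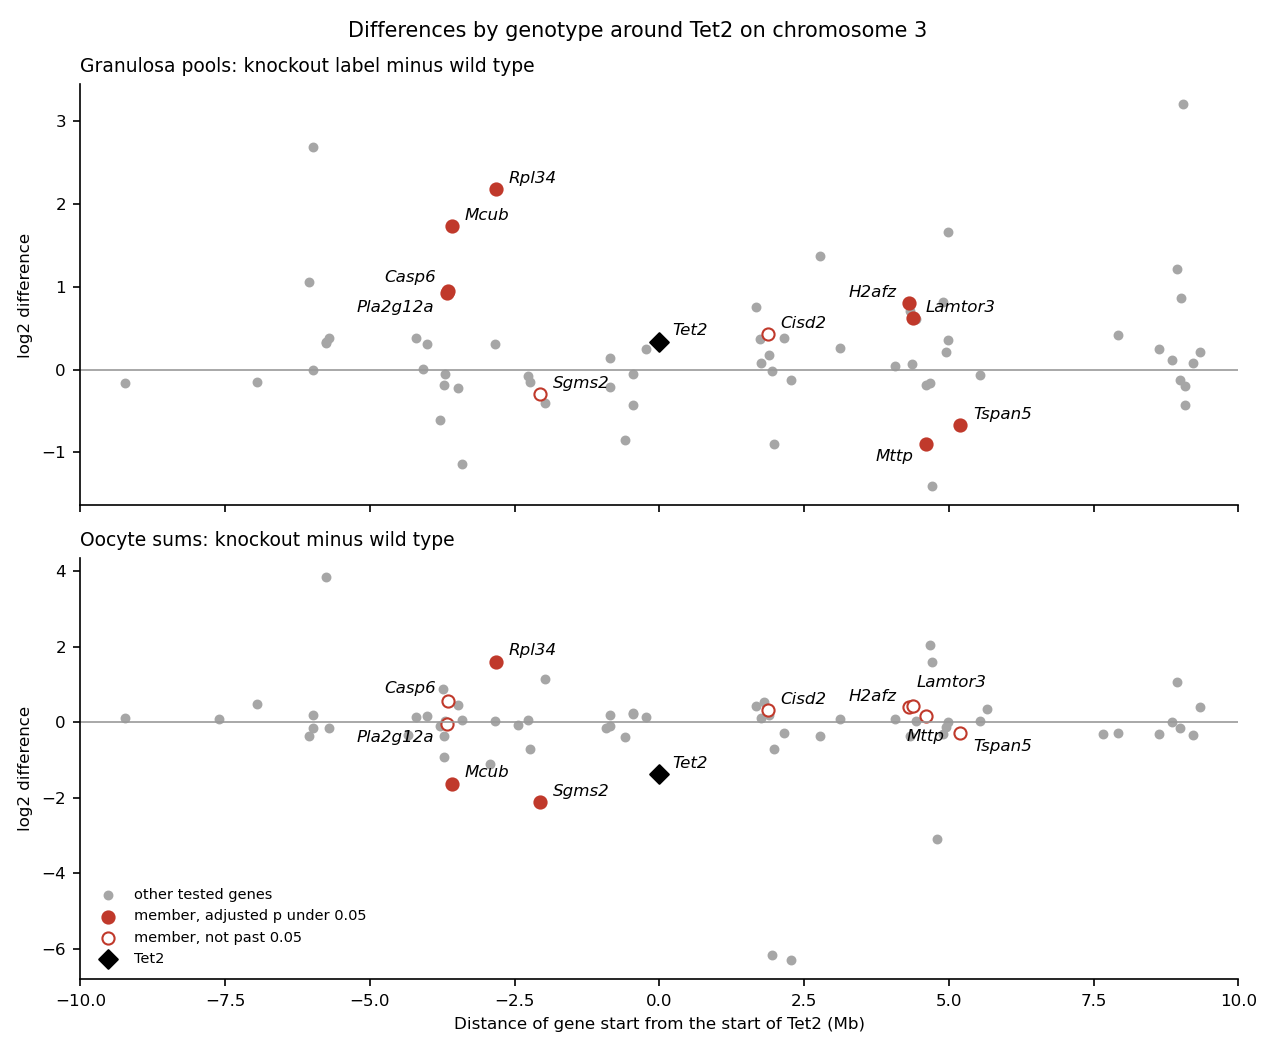
Log2 difference, knockout minus wild type, of every gene tested against the distance of its start from Tet2 in Mb, for granulosa pools and for oocyte sums, with members named (filled where past the threshold) and other genes in grey. All members past the threshold lie between -4 and -2 Mb or between 4 and 6 Mb, and Cenpe and Adh5 are the grey points that passed in granulosa pools.

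In oocytes the same genes gave a different picture. Mcub was lower in knockout oocytes, where it was higher in the knockout-labelled granulosa pools. The sums of knockout oocytes had 38.2, 21.9, 23.3, 22.01 and 20.6 CPM of Mcub, against 45.8, 94.5, 67.3, 76.6 and 88.0 CPM in wild-type oocytes (2 months, 6 months control and resveratrol, 10 months control and resveratrol). The sums did not overlap, with a log2 difference of -1.62, and the highest knockout sum and the lowest wild-type sum were those of 2 months. Sgms2 had 2.02, 4.63, 3.498, 2.02 and 3.11 CPM in the knockout sums, against 5.58, 20.2, 9.64, 13.6 and 17.0 CPM in the wild-type sums. It was lower in every knockout sum, at -2.10 on the log2 scale, the widest difference of the 10 in oocytes and the narrowest in granulosa cells. Without the 4 sets that stood apart the log2 differences were -1.86 for Mcub and -2.26 for Sgms2.

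Rpl34 was higher in knockout oocytes, as it was under the knockout label in granulosa cells. It had 15.5, 24.9, 20.2, 21.4 and 17.8 CPM in the knockout sums, against 7.47, 5.52, 9.63, 5.01 and 4.48 CPM in the wild-type sums, a log2 difference of 1.61 (1.91 without the 4 sets). Rpl34-ps1 had 3.98, 1.26, 0.978, 0.904 and 0.911 CPM in the knockout sums, against 3.98, 16.8, 13.6, 12.5 and 10.3 CPM in the wild-type sums, so the sums of 2 months were level. The sum of the pair was 21.6 ± 2.91 CPM in knockout oocytes and 17.9 ± 4.98 CPM in wild-type oocytes (SD, n = 5 sums each), a ratio of 1.21, so in oocytes too the copies differed in opposite directions and their sum differed less. Lamtor3 had 451, 543, 480, 602 and 560 CPM in the knockout sums, against 411, 349, 390, 387 and 348.5 CPM in the wild-type sums, a log2 difference of 0.43 without overlap.

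The other 6 members overlapped between the oocyte sums. Pla2g12a had 29.2 to 56.7 CPM in knockout sums and 25.3 to 58.0 CPM in wild-type sums, Cisd2 had 56.8 to 87.2 and 43.4 to 69.2 CPM in the same order, and Tspan5 had 23.9 to 55.6 and 34.4 to 49.7 CPM. H2afz had 21.5 to 55.5 CPM in knockout sums and 14.6 to 41.5 CPM in wild-type sums. Casp6 had 0.380 to 3.21 CPM in knockout sums and 0.560 to 1.19 CPM in wild-type sums, and Mttp had 1.46 to 2.62 and 1.37 to 2.12 CPM. At these levels 8 of 85 knockout oocytes and 19 of 86 wild-type oocytes had no count of Casp6. The neighbours Pla2g12a, Casp6 and Mcub, all higher under the knockout label in old granulosa pools, thus parted in oocytes, where Mcub alone had sums without overlap. Of 10 members, 3 passed in the oocyte genotype contrast, 1 higher and 2 lower, where 0.139% of all genes tested passed (0.0385% higher and 0.101% lower), and 4 had sums that did not overlap, among 1.72% of all genes. Here too the members were picked on genotype, so nothing is read from these counts. Leaving out any 1 of the 7 sums other than those of 2 months and of wild-type oocytes of 6 months given resveratrol left 0 members past the threshold. Over all 10 fits that each left out 1 sum, the log2 differences were -1.94 to -1.48 for Mcub, -2.29 to -1.89 for Sgms2 and 1.48 to 1.81 for Rpl34.

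**Figure D4:**
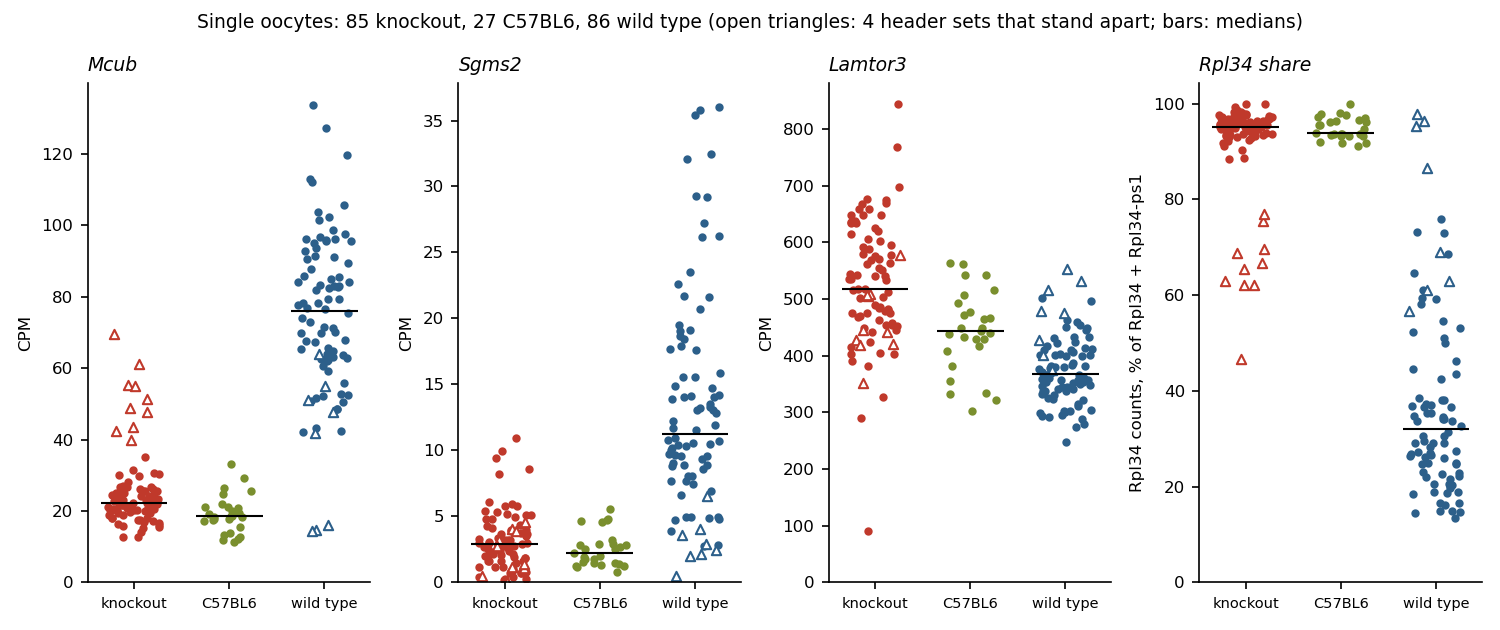
CPM of Mcub, Sgms2 and Lamtor3, and the share of Rpl34 in the counts of Rpl34 plus Rpl34-ps1 in percent, with 1 point per oocyte for 85 knockout, 27 C57BL6 and 86 wild-type oocytes. Bars are medians, open triangles are oocytes of the 4 sets that stand apart, and Mcub without the marked sets spans 12.6 to 35.1 CPM in knockout oocytes and 42.0 to 134 CPM in wild-type oocytes.

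Oocyte by oocyte, most cells followed their sums. Mcub had a median of 22.4 CPM over 85 knockout oocytes (12.6 to 69.5) and 76.0 CPM over 86 wild-type oocytes (14.5 to 134). Without young knockout set 2 the 75 other knockout oocytes spanned 12.6 to 35.1 CPM, and without the 3 wild-type sets that stood apart the 78 other wild-type oocytes spanned 42.0 to 134 CPM. The remaining oocytes did not overlap in a single cell, with the sets chosen on this gene among others. Sgms2 had medians of 2.93 CPM in knockout and 11.2 CPM in wild-type oocytes, and its ranges overlapped also without the sets (0.182 to 10.97 CPM in knockout and 2.74 to 36.04 CPM in wild-type oocytes). Lamtor3 had medians of 517 and 368 CPM in knockout and wild-type oocytes and overlapped widely. Cells of a group may come from the same mouse, so these are spreads over cells and not over animals.

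The share of Rpl34 in the counts of the pair had a median of 95.1% in knockout oocytes and 32.1% in wild-type oocytes. Without the sets that stood apart, the 75 knockout oocytes spanned 88.5 to 100% and the 78 wild-type oocytes spanned 13.5 to 75.9%. Each share rested on few reads, with a median of 92 counts of the pair per knockout oocyte and 73 per wild-type oocyte. Over the sets, the 13 other knockout sets had shares of 93.9 to 97.6% and the 9 other wild-type sets had shares of 23.3 to 64.7%. The highest of these wild-type shares were those of the young sets 1 and 2, at 58.0% and 64.7%, so young wild-type oocytes, like young wild-type granulosa pools 1 and 2, had a share between the extremes.

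The sets that stood apart did so in different ways. Young wild-type sets 3 and 4, with 3 oocytes in all, had Mcub at 14.5, 14.7 and 15.97 CPM. Their Rpl34 shares were 95.2 to 97.8%, and both measures had values found in knockout oocytes. Their Tet2 sums were 3.503 and 4.81 CPM, above every group sum of knockout oocytes. Single oocytes overlapped widely at Tet2, with 0 to 4.86 CPM in knockout and 0 to 6.17 CPM in wild-type oocytes. Tet2 therefore cannot place these 3 oocytes. Set 2 of the wild-type mice of 6 months given resveratrol had Mcub at 41.8 to 64.0 CPM, a summed Rpl34 share of 67.5% and Sgms2 at 3.91 CPM, which lay in the range of the knockout sums, and its Tet2 sum was 2.05 CPM. Young knockout set 2 had Mcub at 39.9 to 69.5 CPM and an Rpl34 share of 46.6 to 77.1%, beside Sgms2 at 2.26 CPM and Tet2 at 0.843 CPM, both on the knockout side. In these 10 oocytes the members on the same side of Tet2 therefore did not go together. The 18 young wild-type oocytes are wild type by title but knockout by genotype tag, and they were grouped by title.

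C57BL6 oocytes resembled knockout oocytes at Mcub, Sgms2 and Rpl34 but not at Tet2. Mcub had 17.0, 18.3 and 21.2 CPM in the sums of C57BL6 oocytes from mice of 10 months given resveratrol, 10 months with control water and 6 months with control water. These values lay near the knockout sums of 20.6 to 38.2 CPM and below the wild-type sums of 45.8 to 94.5 CPM. Sgms2 had 2.15, 2.93 and 2.68 CPM in the C57BL6 sums, inside the knockout range of 2.02 to 4.63 CPM and below the wild-type range of 5.58 to 20.2 CPM. Rpl34 had 33.96, 18.4 and 18.2 CPM in the C57BL6 sums, with a share of the pair of 94.7, 95.1 and 94.6%, beside 15.5 to 24.9 CPM in knockout and 4.48 to 9.63 CPM in wild-type sums. Tet2 had 3.401, 3.08 and 2.87 CPM in the C57BL6 sums, all above the knockout range of 0.941 to 1.38 CPM and close to the wild-type range of 2.301 to 3.39 CPM. In single C57BL6 oocytes Mcub spanned 11.2 to 33.2 CPM and the Rpl34 share 91.2 to 100% (27 oocytes), so no C57BL6 oocyte was in the range of the wild-type oocytes outside the sets that stood apart for either measure.

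Other members differed from both genotypes in C57BL6 oocytes. Pla2g12a had 142, 102 and 73.7 CPM in the C57BL6 sums, all above the knockout sums (29.2 to 56.7 CPM) and the wild-type sums (25.3 to 58.0 CPM). Tspan5 had 81.5, 69.9 and 57.5 CPM in the C57BL6 sums, also above both. H2afz had 11.96, 13.8 and 19.4 CPM in the C57BL6 sums, below every knockout sum (21.5 to 55.5 CPM) and partly inside the wild-type range (14.6 to 41.5 CPM). Casp6, at 2.34, 1.32 and 1.702 CPM in the C57BL6 sums, was above every wild-type sum and inside the knockout range. Lamtor3, at 437, 403 and 469 CPM in the C57BL6 sums, and Mttp overlapped with both genotypes. Cisd2, at 54.3, 53.2 and 104.9 CPM, lay partly inside the wild-type range (43.4 to 69.2 CPM), with no sum inside the knockout range (56.8 to 87.2 CPM). By mean log2 CPM, C57BL6 sums lay nearer the knockout than the wild-type sums for 6 of 10 members. Over 15316 genes this was so for 54.4%, and over the 24 of those genes called by genotype in oocytes for 70.8%. The C57BL6 oocytes are in a table of their own, hold no group of 2 months and no other genotype, and strain, table and collection cannot be told apart, so no test was made.

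**Figure D5:**
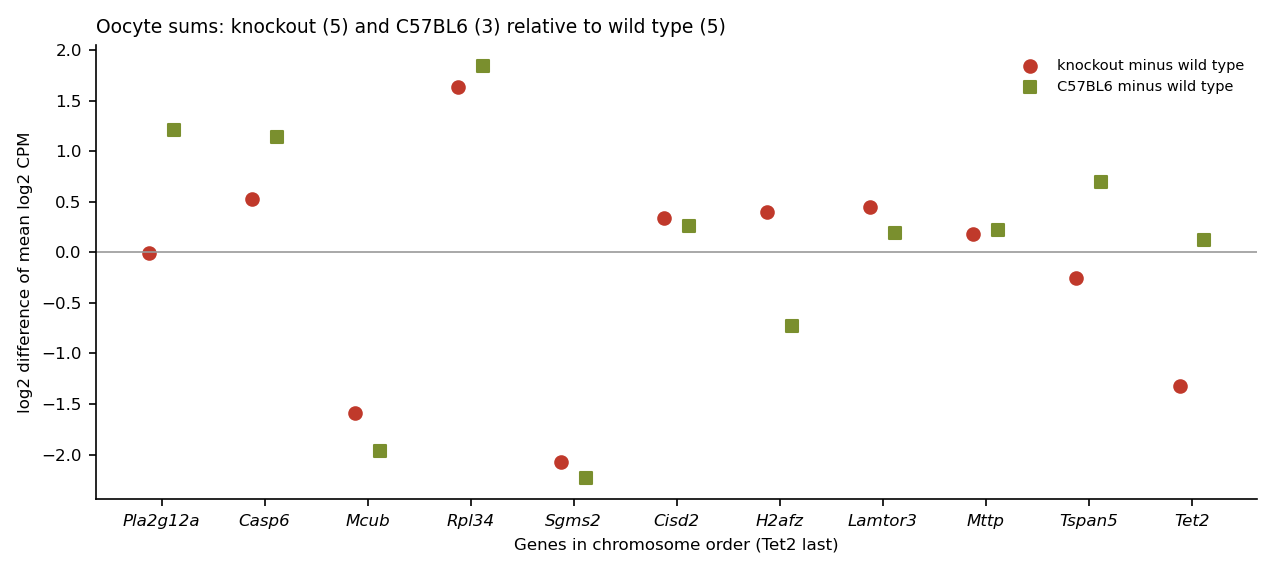
Difference of mean log2 CPM from the 5 wild-type sums (vertical axis) for the 5 knockout sums (red circles) and the 3 C57BL6 sums (green squares), for each member in chromosome order and Tet2. The points of Mcub are at -1.59 and -1.96, those of Sgms2 at -2.07 and -2.24 and those of Rpl34 at 1.64 and 1.84, while Tet2 is at -1.32 in knockout and 0.12 in C57BL6.

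Age was not used to choose the members, but the age comparisons use the same granulosa pools as the genotype contrast that chose them and are not independent of it. In knockout-labelled granulosa pools 2 of 10 members passed as higher at 10 months with control water than at 2 months, where 5.17% of all genes tested passed. Mcub averaged 68.4 ± 17.9 CPM at 10 months and 32.8 ± 18.4 CPM at 2 months (SD, n = 3 pools each), a log2 difference of 1.37 (SE 0.35, adjusted p = 0.0237 in edgeR's quasi-likelihood test), and Casp6 averaged 203 ± 13.5 and 136 ± 24.3 CPM in the same order, a log2 difference of 0.69 (SE 0.19, adjusted p = 0.0326 in the same test). Young pool 2 had the lowest Mcub and Casp6 of the young knockout-labelled pools, and without it the log2 differences were 0.72 and 0.49 with edgeR adjusted p-values of 0.1 and 0.117. Both calls were also lost with other size factors (RLE), where the edgeR adjusted p-values were 0.0504 for Mcub and 0.1 for Casp6, with only the groups compared in the fit (0.260 and 0.365), and without old control knockout-labelled pool 1 (0.108 and 0.143) or pool 2 (0.0870 and 0.117). Casp6 alone was lost without young wild-type pool 1, young knockout-labelled pool 3, old control knockout-labelled pool 3 or any 1 of the other old pools, at edgeR adjusted p-values of 0.0528 to 0.102, and without a filter on low counts (0.0775). Leaving out the pools under 1000000 counts left young pool 2 as the only young pool. The log2 differences were then 2.54 for Mcub, 4.03 for Rpl34, 1.63 for Pla2g12a and 0.97 for Casp6. Without young pool 1 5 members passed, Rpl34, Pla2g12a and H2afz in addition to Mcub and Casp6, among 1001 of 18444 genes tested. With all pools the other 8 members did not pass, with edgeR adjusted p-values of 0.0825 for Rpl34 (log2 difference 1.34, SE 0.45) and more for the rest. Without young pool 2 Rpl34 was the only member that passed, among 1397 of 18511 genes tested. Its log2 difference was smaller there, at 0.77 (edgeR adjusted p = 0.0329), against 1.86 without young pool 1. Without a filter on low counts Rpl34 passed too, with Mcub, H2afz and Pla2g12a, among 1310 of 32472 genes tested. In the same comparison 6 leukocyte markers passed as higher at 10 months, and 5 of the 8 tested oocyte markers as lower (median log2 differences over the lists of 2.16 and -6.83). The part of other cells in the members' age differences was not tested for either label.

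In wild-type granulosa pools no member passed between 10 and 2 months, where 1.53% of all genes passed. In edgeR 2 members had an unadjusted p under 0.05, and DESeq2 called 1, Rpl34. Rpl34 averaged 72.3 ± 6.13 CPM at 10 months and 228 ± 74.0 CPM at 2 months (SD, n = 3 pools each), a log2 difference of -1.71 (SE 0.46, adjusted p = 0.0643 in edgeR's quasi-likelihood test). In the same comparison the same 5 of 8 oocyte markers passed as lower at 10 months (median log2 difference -5.97), while the 12 leukocyte markers had a median of 5.20 with no call in edgeR. The age differences of the labels therefore had opposite signs at Rpl34, and the interaction of age and label was 3.05 (SE 0.64, adjusted p = 0.0575 in edgeR's quasi-likelihood test). In that interaction 0 of 10 members passed in edgeR, 7 had an unadjusted p under 0.05 and DESeq2 called 1, where 0.137% of all genes passed in edgeR. The interaction is the genotype gap of old pools minus that of young pools, and the members were chosen on that gap, so nothing is read from its counts. Without young knockout-labelled pool 2 and young wild-type pool 3, which were picked on Rpl34 itself, the interaction of Rpl34 was smaller, at 2.21, and passed (adjusted p = 0.000428 in edgeR's quasi-likelihood test), as did its age difference in wild-type pools, at -1.45. Without young knockout-labelled pool 1 the interaction of Rpl34 (3.56) and of H2afz (1.69) passed, and without young knockout-labelled pool 2 that of Rpl34 (2.496). Without either 1 of these knockout-labelled pools the age difference of Rpl34 in wild-type pools passed as well, at -1.69 and -1.73.

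With resveratrol no member passed the threshold in granulosa cells of either label. The resveratrol comparisons and their interaction with the label use old pools of the genotype contrast that chose the members. They are not independent of it. In old wild-type pools 0 of 10 members passed with resveratrol against control water in edgeR and in DESeq2, where 1.62% of all genes tested passed in edgeR, and 6 members had an unadjusted p under 0.05. Those 6 were Casp6 (113 ± 9.83 CPM with resveratrol and 91.2 ± 2.94 CPM with control water), H2afz (2869 ± 380 and 1993 ± 560 CPM), Sgms2 (105 ± 20.8 and 183 ± 12.9 CPM), Cisd2, Lamtor3 and Tspan5 (SD, n = 3 pools each). Their log2 differences were 0.54 for Casp6, 0.75 for H2afz, 0.59 for Cisd2, 0.44 for Lamtor3, -0.59 for Sgms2 and -0.62 for Tspan5, and the edgeR adjusted p-values of the 6 lay between 0.120 and 0.260. With only the old wild-type groups in the fit Casp6, Cisd2, H2afz, Rpl34 and Sgms2 passed, among 1783 of 15765 genes tested. Without the pools under 1000000 counts, none of which is in these groups, Casp6, H2afz and Sgms2 passed, among 960 of 19881 genes. In the same comparison 6 leukocyte markers passed as higher with resveratrol. In old knockout-labelled pools 0 members passed, 0 had an unadjusted p under 0.05 in edgeR and DESeq2 called 0, where 0.0285% of all genes passed. The interaction of resveratrol and label gave 0 members called, 0 at an unadjusted p under 0.05 and 0 in DESeq2, where 0.159% of all genes passed.

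In oocytes no member passed the threshold with age or resveratrol. These comparisons use the same oocytes as the genotype contrast and are not independent of it. Between 10 and 2 months 0 of 10 members passed in edgeR and in DESeq2 (0.00481% of all genes in edgeR), and between 6 and 2 months 0 of 10 passed in both (0% of all genes in edgeR). In each of these age contrasts 1 member, Sgms2, had an unadjusted p under 0.05 in edgeR. Its log2 difference was 0.96 (SE 0.38, edgeR adjusted p = 0.315) at 10 months and 1.21 (SE 0.36, edgeR adjusted p = 0.502) at 6 months against 2 months. The summed level of Sgms2 was lowest at 2 months in wild-type oocytes, at 5.58 CPM, and in knockout oocytes it was as low at 10 months with control water as at 2 months, at 2.02 CPM in both. Resveratrol against control water and the interaction of resveratrol and genotype each gave 0 members called in edgeR (0% of all genes in both), 0 at an unadjusted p under 0.05 and 0 in DESeq2. With the 26 set sums in place of the 10 group sums, a choice made after seeing the data, Cisd2, Pla2g12a and Sgms2 passed between 10 and 2 months and H2afz and Sgms2 between 6 and 2 months, all higher at the later age. Sets of a group may come from the same mice, so the spread between them may be too small.

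The genes whose profile was most like the members' mean profile, each member first set to its genotype direction, were named by the size of Pearson's r over the samples. Across the 18 granulosa pools these were Adh5 (0.95), which lies in the same window, and Prune (-0.92), Thumpd1 (-0.91), Spag1 (-0.91) and Ak3 (-0.91). Across the 10 oocyte sums they were RP24-173B18.1 (0.95), Bst2 (-0.95), Tet2 (-0.94), Kcnmb2 (-0.93), on chromosome 3 but outside the window, and Tbrg1 (0.93). These values describe likeness over samples that share libraries and genotype groups, and no test was made of them.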

How the data were processed

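The 217 libraries were analysed from 2 deposited count tables, which hold whole numbers of reads for each gene that the authors did not normalise. HISAT2 2.1.0, featureCounts, DESeq2 and mm10 are named, without roles, per the submitters' processing notes. The sources used here do not say whether strand was used in counting, so reads of genes that overlap on opposite strands may be mixed. Reads of near-identical copies cannot be fully told apart in either case. Positions are those of GENCODE vM21 (GRCm38), in which 28390 symbols matched once, and copies of members were searched with blastn 2.17.0 (at least 95% identity over 100 bases).

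The test was the quasi-likelihood test of edgeR 4.0.16 (R 4.3.3) on these counts, with TMM factors, filterByExpr (minimum count 10) and Benjamini-Hochberg adjustment over all genes tested, at 0.05. The 18 granulosa pools entered 1 model with a mean per group (12 residual degrees of freedom). Oocytes were summed per group, and the 10 sums were fitted additively on age, genotype and resveratrol (5 residual degrees of freedom, 4 with the interaction). The scripts were tested on simulated counts. CPM values use library totals. Ratios against C57BL6 sums used TMM over all sums. Groups follow sample titles, and 1 C57BL6 oocyte was left out because its treatment tag contradicts its title. The labels give the cells per granulosa pool in 2 ways, so their number is not given here. Alternatives were RLE factors, no filter, DESeq2 1.42.0, limma 3.58.1 on mean CPM (pseudocount 1), a replicate block, only the groups compared, leaving out each pool or sum, and, chosen after seeing the data, set sums and leaving out sets or pools that stand apart. Beyond members and Tet2, genes were named where they lie within 10 Mb and passed at 10 CPM or more, or by likeness (the 5 highest absolute r). The members and lists were chosen with earlier results of these data known.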

Additional observations from a re-analysis of the deposited data

Results flagged for a closer look

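The sum of young knockout oocytes had the highest Mcub of the 5 knockout sums, at 38.2 CPM, with the next at 23.3 CPM, a gap of 0.843 of the whole range. The 10 oocytes of young knockout set 2, at 39.9 to 69.5 CPM, are part of this sum. In C57BL6 oocytes of 10 months given resveratrol, 1 of 10 oocytes had 4.69 CPM of Sgms2, with the next at 2.88 CPM, a gap of 0.468 of the range. Of 40 groups looked at in this way these 2 were flagged, and chance flags about 1 in 20 groups.

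Mcub differed in opposite directions in the cell types. Its mean log2 difference over the oocyte strata was -1.56, knockout minus wild type, and in granulosa pools it was 1.74. The difference between the cell types was not tested.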

How the results depend on the processing

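No genotype log2 difference of a member moved by more than the spread between samples under any alternative (230 values in granulosa cells and 170 in oocytes). In oocytes the sign of Pla2g12a (-0.04) changed in 7 of 17 alternatives, with values of -0.24 to 0.08, and that of Mttp (0.17) in 2, reaching -0.01, and neither had passed the threshold. No other member changed sign in either cell type. The count of members past the threshold by genotype label in granulosa cells was 8, with 7 to 9 under other settings and 5 to 9 when each pool was left out. In oocytes the genotype count was 3, with 0 to 3 when each sum was left out, 1 with age and water strata as a block, 5 with set sums and 3 without the 4 sets that stand apart. By age in knockout-labelled granulosa the count of 2 became 0 with RLE factors (689 of 17558 genes tested passed) and when only the groups compared were fitted (104 of 15285). It became 4 without the filter (1310 of 32472) and 1 without the 2 young pools that stand apart (1366 of 18449). When each pool was left out it was 0 to 5, and 343 to 1397 of all genes passed. By age in wild-type granulosa the count of 0 became 1 without the filter (785 of 32472 genes tested passed) and with DESeq2 (535 of 17558). It was also 1 without the 2 young pools (231 of 18449) and with only the groups compared (936 of 12385), and 0 to 1 when each pool was left out. For age by label the count of 0 became 3 without the filter, 1 with DESeq2, 1 with the replicate block, 1 without the 2 young pools, and 0 to 2 when each pool was left out. These 2 pools were picked on the Rpl34 share, so the call of Rpl34 without them is not independent of that choice. By resveratrol in old wild-type granulosa the count of 0 became 1 without the filter (542 of 32472 genes tested passed). It became 5 with only the groups compared (1783 of 15765 genes) and 3 without pools under 1000000 counts (960 of 19881 genes). In oocytes the age counts of 0 became 3 (10 months) and 2 (6 months) with set sums. The C57BL6 count of 4 members nearer wild type was 3 to 5 when each sum was left out. No pairing of pools by replicate number was seen. Same-numbered pools of different groups deviated together with r from -0.163 to 0.15 (median -0.0123) over 45 pairs. Differently numbered pools were not compared, so whether same-numbered pools share a mouse or a day cannot be told. The causes of these changes were not tested. Depth limits the young pools under 1000000 counts most. Young knockout-labelled pool 2 is not among them, at 11595710 counts.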

Other observations

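The C57BL6 oocyte with disagreeing labels had 20.2 CPM of Mcub, 40.6 CPM of Rpl34, 3.36 CPM of Sgms2 and 1.59 CPM of Tet2. Among members with a near-identical copy, Sgms2 shares 101 bases at 95.05% identity with Plekha1, which averaged 39.8 CPM in knockout-labelled and 40.6 CPM in wild-type granulosa pools, and 53.8 CPM in knockout and 52.9 CPM in wild-type oocyte sums. In oocytes Adh5, which was higher under the knockout label in granulosa cells, averaged 227 ± 28.2 CPM in knockout sums and 273 ± 25.1 CPM in wild-type sums (SD, n = 5 sums each), and Cenpe averaged 367.5 ± 44.3 and 267 ± 47.2 CPM in the same order.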
